A study of Mus musculus with 4 samples.

Results

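The mRNAs of 10 genes of brain endothelial cells (Cldn5, Pecam1, Flt1, Kdr, Tek, Cdh5, Slc2a1, Abcb1a, Mfsd2a and Ly6c1) were measured by whole transcriptome sequencing of mouse cortex. The genes were chosen by name as markers of the vessel wall and of the blood-brain barrier, and the counts of all table rows that carry a member's symbol, ignoring case, were summed. All 10 symbols were found, on 14 of the 37539 transcript rows, and they are 10 of the 19589 gene features tested. The samples were cortices of 2 male APPswe/PS1ΔE9 mice (APP) and of 2 male wild type C57BL/6J mice (WT), all 12 months old. The APP mice carry transgenes of mutant amyloid precursor protein and presenilin 1. The labels give C57BL/6 as the strain background of both groups. In this transgenic line, a model of amyloid deposition in AD, the prion protein promoter drives both transgenes. Ribosomal RNA was depleted before strand-specific sequencing, and the libraries are named by the numbers of their table columns, APP.3, APP.4, WT.1 and WT.2.

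Endothelial cells line the vessels of the brain and form the blood-brain barrier. Tight and adherens junctions seal the cells to each other, receptors for VEGF and the angiopoietins govern vessel growth and quiescence, and transporters carry glucose and lipids inward or pump foreign compounds back into the blood. Endothelial cells are a small share of the cells of the cortex, so their transcripts are diluted in RNA of the whole tissue, and in such bulk samples fewer endothelial cells and less RNA per endothelial cell cannot be told apart.

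The libraries held between 28525117 and 43881196 counts, of which the members took between 2359 and 4054. The lowest count of a member in a library was 48 (Cdh5 in APP.3) and the highest was 1077 (Slc2a1 in WT.1). App, which shares most of its sequence with the APP transgene, stood at 2681 and 2388 CPM (counts per 1000000 counts) in APP. In WT it stood at 857 and 905 CPM, lower as the labels require (log2 fold change 1.52, edgeR adjusted p = 1.35e-05). For 2 mice against 2, the smallest two-sided p of an exact permutation test is 0.33, so the adjusted p-values given here draw on edgeR's spread pooled over genes.

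None of the 10 endothelial genes reached both a 1.5-fold change and an FDR under 0.05 between APP and WT cortex, where 0.919% of all features did (0.878% higher and 0.0408% lower in APP). None passed on FDR alone either, against 1.24% of all features (1.09% higher and 0.148% lower). Slc2a1 was the 1 member with an unadjusted p under 0.05 by edgeR's quasi-likelihood, exact and likelihood ratio tests, against 11.9% of all features in the first of these, and DESeq2 gave 0. The log2 fold change was below 0 in 9 of the 10 genes (49.9% of all features), with a median of -0.11 against 0.00026 over all features. Both APP libraries lay below both WT libraries for 3 members, Slc2a1, Mfsd2a and Ly6c1 (21.1% of all features), and the groups overlapped for the other 7. For 7 members the 95% interval of the fold change stayed inside 1.5-fold in both directions (59.9% of all features), while for Tek, Cdh5 and Mfsd2a a fall of more than 1.5-fold lay within the interval. This count dropped to 4 without WT.1 and to 3 without WT.2.

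**Figure D1:**
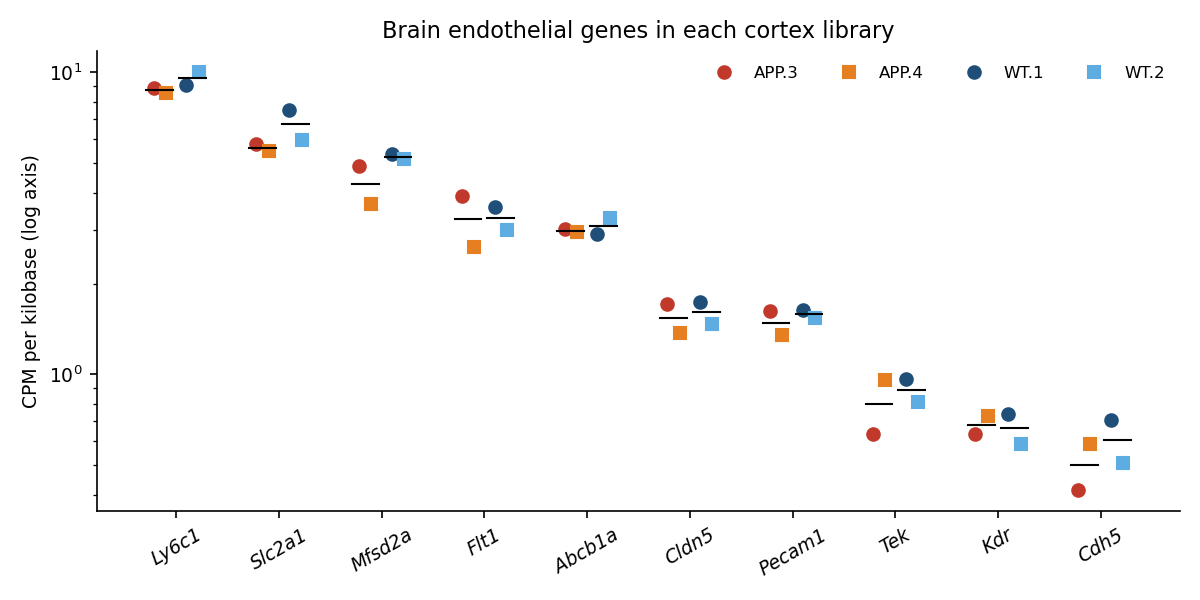
CPM per kilobase of transcript (log axis) of the 10 endothelial genes in each of the 4 libraries, in order of their mean level, with a black line at each group's mean. Ly6c1 stands at the top and Cdh5 at the bottom, and only for Ly6c1, Slc2a1 and Mfsd2a do both APP points lie under both WT points.

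Per length, the members spanned more than an order of magnitude in the cortex. Over the 4 libraries, Ly6c1 had the highest mean level at 9.15 CPM per kilobase, followed by the glucose transporter Slc2a1 at 6.19 and the lipid transporter Mfsd2a at 4.77 CPM per kilobase. Flt1 (3.29) and Abcb1a (3.05) came next, then Cldn5 (1.57) and Pecam1 (1.53), and the receptors Tek (0.842) and Kdr (0.673) and the cadherin Cdh5 (0.555 CPM per kilobase) were lowest. The ranges over the libraries did not overlap between Ly6c1 and Slc2a1, between Slc2a1 and Mfsd2a, between Abcb1a and Cldn5 or between Pecam1 and Tek. Neighbours within the remaining pairs of the order overlapped.

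The 3 junction and adhesion genes were measured at low levels, and the groups overlapped in each. Cldn5, the claudin that seals the tight junctions of brain endothelium, had 2.41 and 1.94 CPM in APP and 2.46 and 2.09 CPM in WT. The groups overlapped, with means of 2.18 ± 0.338 (SD, n = 2) and 2.27 ± 0.261 CPM (SD, n = 2), and the log2 fold change of -0.069 had a 95% interval from -0.57 to 0.43. Cldn5 has a single exon on chromosome 16, from 18776847 to 18778262 on the plus strand (GRCm38, GENCODE M21). Cdh5, or VE-cadherin, holds adherens junctions together. It had 1.66 and 2.36 CPM in APP and 2.82 and 2.03 CPM in WT, so that the lowest library was an APP library and the highest a WT library, with the other two in between. Its log2 fold change was -0.28 ± 0.26 (SE) with an adjusted p of 0.751 (edgeR), and it ran from -0.56 without APP.4 to -0.015 without WT.1.

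Pecam1, an adhesion molecule of endothelial cell borders that platelets and myeloid cells also carry, had 4.93 and 4.10 CPM in APP and 4.96 and 4.65 CPM in WT. The groups overlapped (log2 fold change -0.093, 95% interval -0.46 to 0.28). Of its counts, 77.5% fell on the transcript Pecam1-201, with a log2 fold change of -0.13, and the rest on Pecam1-202, with 0.048. A further Pecam1 transcript with a retained intron carried no symbol in the table and was not part of the sum. It had 107 and 95 counts in APP and 146 and 141 in WT (log2 fold change -0.11).

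In the 3 receptors the groups overlapped as well. Flt1 (VEGFR1) binds VEGF tightly and signals weakly, and a soluble form made from the same gene traps the ligand outside the cell. Its level was 16.04 and 11.7 CPM in APP and 15.3 and 12.5 CPM in WT. The APP libraries enclosed the WT libraries, and the log2 fold change was -0.011 (95% interval -0.37 to 0.35, edgeR adjusted p = 0.993). Kdr (VEGFR2), the main signalling receptor for VEGF in endothelium, had 3.76 and 4.33 CPM in APP and 4.37 and 3.50 CPM in WT. Here the WT libraries enclosed the APP libraries, and Kdr was the 1 member with a log2 fold change above 0 (0.036, 95% interval -0.38 to 0.45). Tek (Tie2), the receptor of the angiopoietins, had 2.66 and 4.04 CPM in APP and 4.07 and 3.41 CPM in WT. APP.3 was the lowest library, WT.2 came next, and APP.4 and WT.1 were nearly equal. The log2 fold change of Tek was -0.16 ± 0.22 (SE), and it moved to -0.50 without APP.4 and to 0.11 without APP.3.

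Flt1 was counted on 3 transcripts, which share their 5′ part and then separate. The stretch where the membrane-bound form Flt1-202 and the shorter Flt1-203 part is shown because it is what tells their reads apart. Lower case is shared sequence and capitals follow the point of divergence, at transcript bases 2220 to 2279 of Flt1-202 and 2197 to 2256 of Flt1-203 (GENCODE M21):
Flt1-202: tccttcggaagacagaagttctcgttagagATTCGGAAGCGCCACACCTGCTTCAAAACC
Flt1-203: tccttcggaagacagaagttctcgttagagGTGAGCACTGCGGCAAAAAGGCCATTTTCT
Flt1-203 ends with a run of 4066 bases of its own and codes for 2064 bases against 3999 in Flt1-202. Flt1-201, of 2049 bases, is a processed transcript in GENCODE with 241 bases after its divergence.

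Flt1-202 took 236 and 177 counts in APP and 291 and 205 in WT, which was 50.8% and 48.9% of the Flt1 counts in APP and 43.2% and 46.2% in WT. Its share was higher in both APP libraries, and its log2 fold change was 0.16 (adjusted p = 0.877). Flt1-203 took 101 and 103 counts in APP and 215 and 120 in WT. In CPM its groups overlapped, its log2 fold change was -0.29 (adjusted p = 0.747), and a difference between the 2 transcripts was not tested. The sources used here do not state how reads on the shared bases were assigned to a transcript.

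Tek was counted mostly on Tek-201 (89.4% of its counts), whose log2 fold change was -0.063. The minor transcript Tek-202 had 4 and 10 counts in APP and 24 and 15 in WT. It was lower in both APP libraries, at 5.19% and 8.0% of the Tek counts against 13.4% and 12.4% in WT. The log2 fold change was -1.06, which did not pass (adjusted p = 0.594, edgeR's quasi-likelihood test). Over all members, 0 of the 14 transcripts had an FDR under 0.05, against 1.06% of all transcripts (0.807% with a 1.5-fold change as well), and 1, that of Slc2a1, had an unadjusted p under 0.05.

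**Figure D2:**
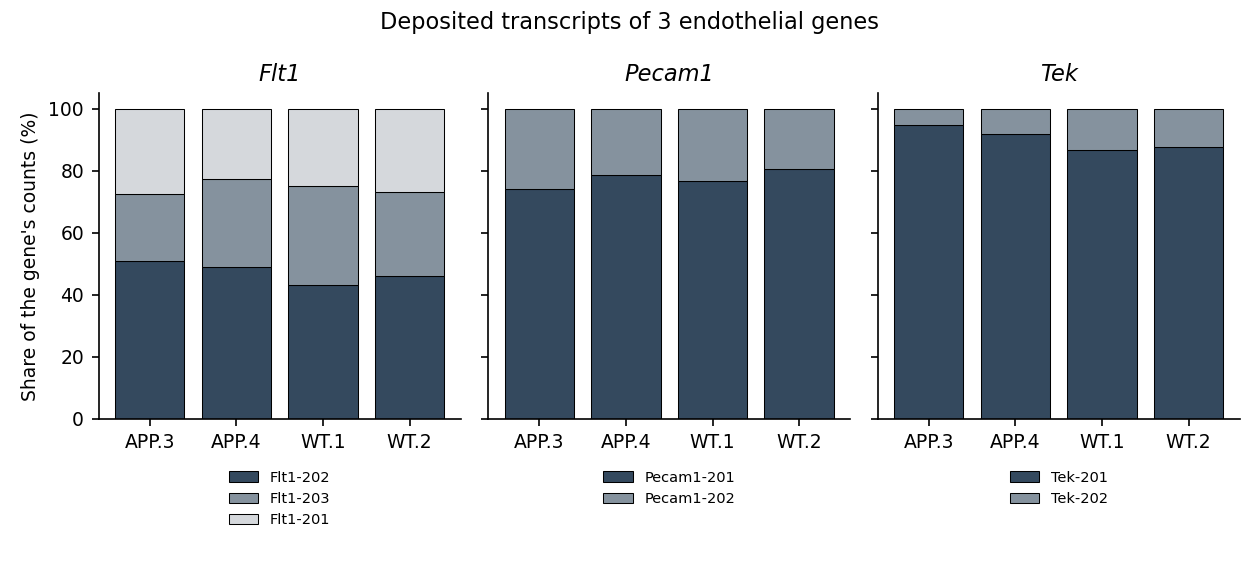
Share of each gene's counts (%) on each deposited transcript of Flt1, Pecam1 and Tek in the 4 libraries. Flt1-202 takes 43.2% to 50.8% of the Flt1 counts, and Tek-202 takes 5.19% and 8.0% of the Tek counts in APP against 13.4% and 12.4% in WT.

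The lowest fold changes were those of 2 transporters of the barrier and of Cdh5. Slc2a1 (GLUT1), which brings glucose across the barrier and is also made by astrocytes, had 18.8 and 17.9 CPM in APP and 24.5 and 19.5 CPM in WT. Both APP libraries were below both WT libraries, and WT.1 stood well above the other 3. The means were 18.3 ± 0.692 and 22.02 ± 3.50 CPM (SD, n = 2 each), and APP was at 0.831 of WT (95% interval 0.694 to 0.994). With edgeR's quasi-likelihood test the unadjusted p was 0.0441 and the adjusted p 0.400. The log2 fold change of -0.27 became -0.092 without WT.1 and -0.42 without WT.2. WT.1 was also the library with the most red blood cell RNA, whose 3 features summed to 188 CPM there, 88.6 CPM in WT.2, and 136 and 90.7 CPM in APP. The part of retained blood in this result was not tested.

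Mfsd2a carries lysophospholipids with docosahexaenoic acid into the brain and restrains transcytosis in brain endothelium. It had 10.5 and 7.91 CPM in APP and 11.5 and 11.1 CPM in WT. Both WT libraries were higher, but the APP libraries lay further from each other than the nearer of them lay from WT. The log2 fold change was -0.30 (95% interval -0.63 to 0.037, adjusted p = 0.482). Without APP.3 it was -0.51 with an adjusted p of 0.00897, still short of 1.5-fold, and without APP.4 it was -0.11. The fit without APP.3 put 1891 of all features under an FDR of 0.05, against 242 with all libraries.

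Abcb1a, the main P-glycoprotein of mouse brain capillaries, pumps drugs and other compounds out of the endothelium. It had 15.1 and 14.8 CPM in APP and 14.5 and 16.5 CPM in WT. The APP libraries lay between the WT libraries, and the log2 fold change of -0.055 had the narrowest interval of the members, from -0.29 to 0.18. Its near copy Abcb1b had 7.07 and 6.75 CPM in APP and 4.07 and 4.94 CPM in WT. Abcb1b was thus higher in both APP libraries, by 0.62 ± 0.16 on the log2 scale (SE). This did not pass with the quasi-likelihood test (adjusted p = 0.133) or DESeq2 (0.232) but passed by the exact (0.0412) and likelihood ratio (0.0348) tests of edgeR. The log2 fold change of Abcb1b ran from 0.48 without WT.1 to 0.76 without WT.2. The difference between the 2 copies was not tested.

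Reads of the 2 copies could be confused where their sequences match, and a stretch they share is shown for that reason. The sources used here do not state how such reads were assigned. Their coding sequences, of 3828 bases each, were 88.0% identical, and 45.8% of all 100-base windows differed at no more than 7 bases, the number of mismatches that the alignment allowed. Coding bases 1204 to 1303 of Abcb1a are the same in Abcb1b:
Abcb1a and Abcb1b: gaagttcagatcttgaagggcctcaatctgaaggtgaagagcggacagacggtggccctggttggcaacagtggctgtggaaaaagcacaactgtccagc
Summed over both copies, the level was 22.2 and 21.5 CPM in APP and 18.6 and 21.5 CPM in WT, and the log2 fold change was 0.13 (95% interval -0.088 to 0.34, adjusted p = 0.669). The sum of the 2 copies thus had the opposite sign to Abcb1a alone.

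Ly6c1, a surface protein of brain endothelium that is also found on some leukocytes, had 7.52 and 7.20 CPM in APP and 7.69 and 8.49 CPM in WT. Both APP libraries were lower, the nearest APP and WT libraries by a small margin, and the log2 fold change was -0.14 (95% interval -0.44 to 0.17, adjusted p = 0.769). The gene lies on chromosome 15 from 75045013 to 75048830, on the minus strand (GRCm38). Its near copy Ly6c2, a marker of inflammatory monocytes, has a coding sequence of the same 393 bases in length and 97.7% identity. In all 294 windows of 100 bases the copies differed at 7 bases or fewer, so the mismatches allowed in the alignment cover every difference that a read within the coding sequence could meet. The window with the most differences, coding bases 1 to 100, shows this, with the 6 bases that differ in capitals:
Ly6c1: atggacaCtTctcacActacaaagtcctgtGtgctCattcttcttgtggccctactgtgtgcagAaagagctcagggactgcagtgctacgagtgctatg
Ly6c2: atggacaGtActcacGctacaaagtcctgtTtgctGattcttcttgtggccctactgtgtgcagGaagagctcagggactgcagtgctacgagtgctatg
No row carries the symbol Ly6c2. By its identifier in GENCODE M21, 1 row without a symbol is a Ly6c2 transcript with a retained intron, with 10 and 11 counts in APP and 19 and 17 in WT. No row of the table had fewer than 10 counts in total, so a Ly6c2 transcript with fewer would also be absent. The Ly6c1 level may hold reads of both genes, and how such reads were assigned is not stated. With the Ly6c2 row added, the log2 fold change of Ly6c1 was -0.15. At 93% identity or more over 100 bases, the coding sequence of Ly6c1 also matched Ly6a, and that of Abcb1a also matched Abcb4. No other member's coding sequence had such a match in another gene. Untranslated parts of the members were not searched.

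**Figure D3:**
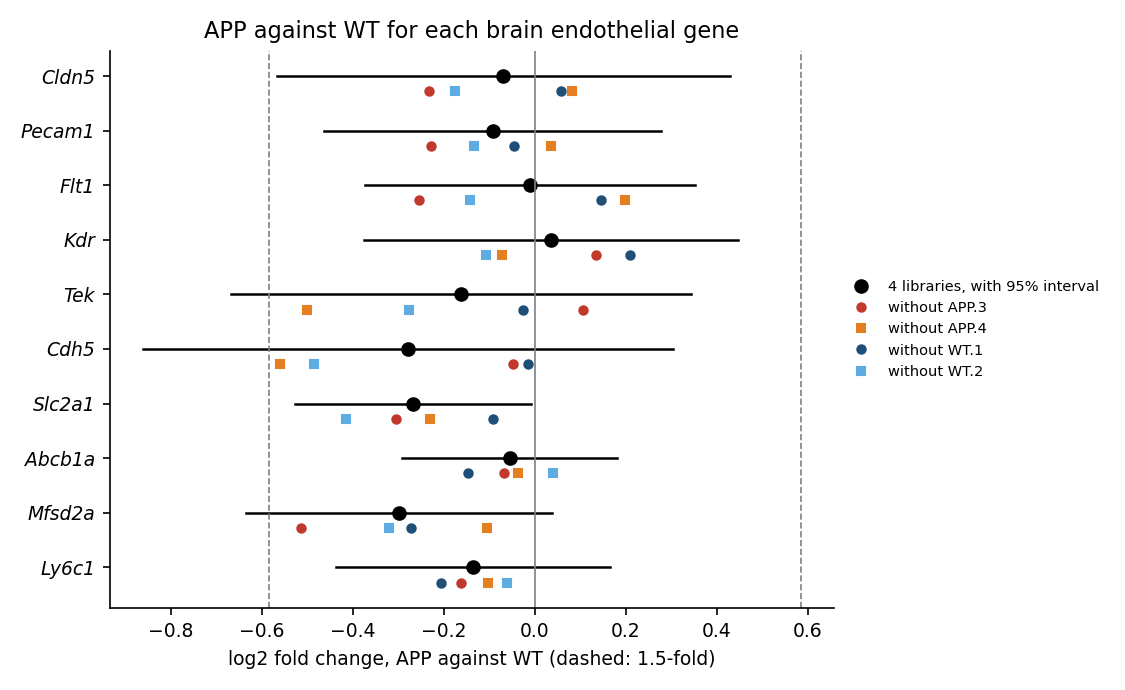
Log2 fold change of APP against WT for the 10 endothelial genes from all 4 libraries (black point, with the 95% interval as a line) and without each library (coloured points), with dashed lines at a fold change of 1.5. Only the interval of Slc2a1 ends below 0, at -0.0087, and the coloured points of 6 genes lie on both sides of 0.

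Summed over the 10 genes, the level was 83.4 and 76.2 CPM in APP and 92.2 and 83.9 CPM in WT. APP.3 and WT.2 were nearly equal. The means were 79.8 ± 5.14 and 88.1 ± 5.89 CPM (SD, n = 2 each), a ratio of 0.906. The groups no longer separated once Tek, Slc2a1, Abcb1a, Mfsd2a or Ly6c1 was left out of the sum. For example, without Slc2a1 the sums were 64.6 and 58.3 CPM in APP and 67.7 and 64.3 CPM in WT.

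Among 24 other genes of endothelial identity, 10 had a log2 fold change below 0, and the median was 0.033. By edgeR's 3 tests and DESeq2, 0 passed an FDR of 0.05 and 0 had an unadjusted p under 0.05. Among those of at least 1 CPM, the lowest value was that of Egfl7, a secreted factor of endothelial cells, at -0.19, and the highest that of Eng, a co-receptor for TGF-beta, at 0.34. APP.3 was the high library for Eng, whose value turned to -0.18 without it and rose to 0.74 without APP.4. Their summed level of 268 and 255 CPM in APP overlapped that of 267 and 246 CPM in WT. The 12 further junction genes had a median of -0.041, and 0 passed by the same 4 tests. In each test 2 had an unadjusted p under 0.05, against 11.9% of all features by the quasi-likelihood test. Among those of at least 1 CPM, F11r, the junctional adhesion molecule A, was highest at 0.68 (adjusted p = 0.262), and the cadherin-binding Ctnnd1 lowest at -0.12. F11r had 4.24 and 6.84 CPM in APP and 3.66 and 3.27 CPM in WT, so that APP.4 was its high library. Dropping APP.4 lowered the F11r value to 0.29, while dropping APP.3 raised it to 0.98.

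In the VEGF and angiopoietin pathway, 16 of 17 listed genes were in the table, 0 passed both cut-offs, and 2 passed on FDR alone while the receptors Flt1, Kdr and Tek did not. Vegfa, the ligand of Flt1 and Kdr, had 26.2 and 25.6 CPM in APP and 36.3 and 33.6 CPM in WT. It fell to 0.740 of WT (log2 fold change -0.43 ± 0.079 SE, edgeR adjusted p = 0.0388). The call was lost without WT.1 (adjusted p = 0.215) or WT.2 (0.0703) and on its most counted transcript (0.0561). Nrp2, a neuropilin co-receptor for VEGF family members and semaphorins that neurons also carry, had 57.2 and 59.0 CPM in APP and 43.7 and 39.3 CPM in WT. It rose 1.40-fold (adjusted p = 0.0223), a call lost without WT.2 (0.157) and on its most counted transcript (0.161). For both genes the groups lay well apart, with small gaps between replicates. The list's median was -0.003. Its extremes among genes of at least 1 CPM were the hypoxia-responsive Angptl4 at 0.59 (adjusted p = 0.424) and the peptide ligand Apln at -0.66 (0.183, and 0.0463 by the likelihood ratio test). The value of Apln was -0.98 without APP.4 and -0.40 without APP.3.

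Among 20 further transporters and receptors of the barrier, 5 had an unadjusted p under 0.05 by edgeR's quasi-likelihood test, against 11.9% of all features. Slco2b1 was the 1 gene past both cut-offs, against 0.919% of all features. This organic anion transporter, which microglia also express, had 15.7 and 15.8 CPM in APP and 9.83 and 10.9 CPM in WT. It rose 1.52-fold (log2 fold change 0.60 ± 0.11 SE, adjusted p = 0.0346), and the call was lost without WT.1 (0.229) or WT.2 (0.0869). Slco1c1, which carries thyroxine across the barrier, had the lowest value of the list among genes of at least 1 CPM, -0.30 (adjusted p = 0.164). It had 26.7 and 29.3 CPM in APP and 33.6 and 35.4 CPM in WT. Its value was -0.37 without APP.4 and -0.23 without APP.3. The median of the list was 0.0054.

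**Figure D4:**
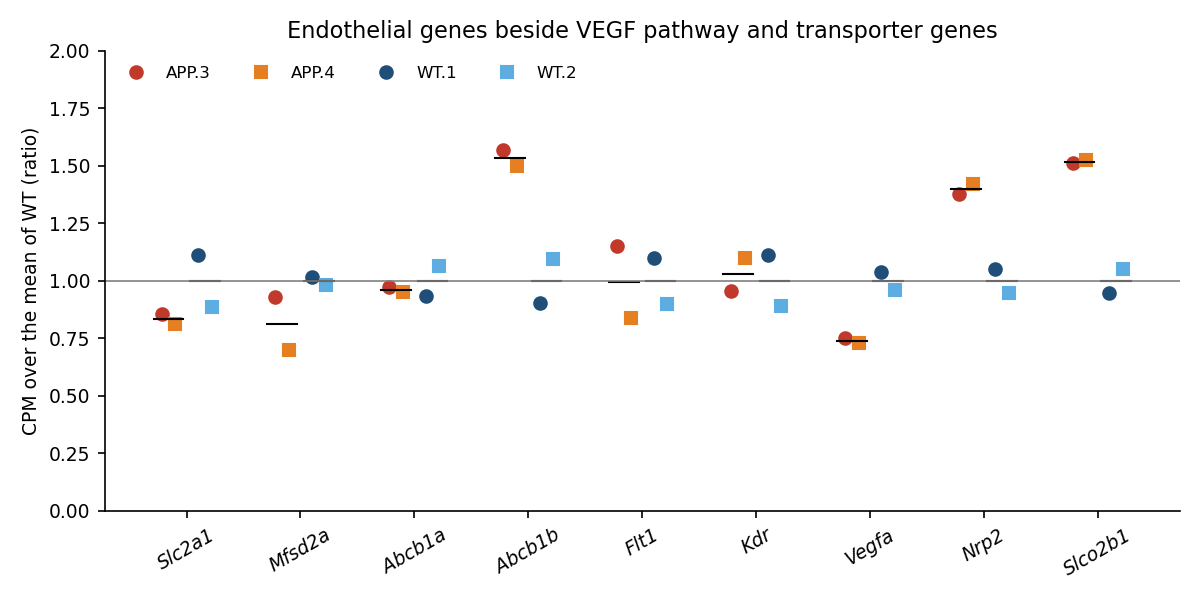
CPM of each library over the WT mean of the gene (ratio, axis from 0) for 4 transporters, the VEGF receptors Flt1 and Kdr, their ligand Vegfa, Nrp2 and Slco2b1, with a line at each group's mean. Vegfa lies at 0.750 and 0.731 in APP, Nrp2 and Slco2b1 lie at 1.38 to 1.52, and Flt1 and Kdr scatter around 1.

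Of the genes that set the endothelial programme, 0 were called by edgeR's quasi-likelihood test. By that test 2 of the Wnt genes and 3 of the transcription factors had an unadjusted p under 0.05, against 11.9% of all features. On FDR alone, 1 Wnt gene passed by the exact test, 1 by DESeq2 and 2 by the likelihood ratio test. Of all 19589 features, 571, 336 and 624 did so by these tests in that order. The 18 genes of Wnt signalling, which induces the barrier, had a median of -0.099. Among those of at least 1 CPM, values ran from Lef1 at -0.31 to the Wnt inhibitor Apcdd1 at 0.79 (adjusted p = 0.164, with 0.0462 by the likelihood ratio test). Apcdd1 was at 0.48 without APP.3 and at 1.05 without APP.4. The 20 endothelial transcription factors had a median of 0.22, and 11 of them had a mean of at least 1 CPM. In 8 of the 20 both APP libraries lay above both WT libraries, where 21.4% of all features did, and 0 passed by any of the 4 tests. Which cells of the cortex these transcripts came from was not tested. Ppard, a nuclear receptor, was highest at 0.61 (adjusted p = 0.261) and Klf4, a factor responsive to blood flow, lowest at -0.33 among those of at least 1 CPM. The 13 arterial and venous genes had a median of -0.043 (1 with an unadjusted p under 0.05, and 0 called by the 4 tests), with the arterial semaphorin Sema3g at 0.69 and the venous transporter Slc38a11 at -0.39. The 12 activation genes had a median of -0.058, and 3 had an unadjusted p under 0.05, against the same 11.9% of all features. Icam1, the leukocyte adhesion molecule induced on inflamed endothelium, had 1.38 and 1.68 CPM in APP and 0.50 and 0.733 CPM in WT, a fold of 2.50. It did not pass with the quasi-likelihood test (adjusted p = 0.121) or DESeq2 and did with the exact test (0.0117). These levels rest on 40 and 52 counts in APP and 22 and 26 in WT. The log2 fold change of Icam1 ran from 1.06 without WT.1 to 1.61 without WT.2. At the other end of that list was the caveolar protein Cav2 at -0.29 (quasi-likelihood adjusted p = 0.0922). Cav2 passed on FDR by the exact (0.0291) and likelihood ratio (0.0273) tests but not by DESeq2 (0.129), and stayed short of 1.5-fold.

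Genes of the cells around the endothelium gave 0 calls by the quasi-likelihood test as well. By that test 3 pericyte, 0 smooth muscle and 3 fibroblast genes had an unadjusted p under 0.05, against 11.9% of all features. The 14 pericyte genes had a median of 0.13. Notch3, the Notch receptor of mural cells, had 5.45 and 5.91 CPM in APP and 3.43 and 2.60 CPM in WT. Its log2 fold change was 0.91, just outside the threshold (adjusted p = 0.0573), which it passed with the exact test (0.00168) and with DESeq2 (0.0411), and without each library in turn but WT.2. The potassium channel subunit Abcc9 was lowest at -0.24. Medians were -0.16 over 8 smooth muscle genes, with Mylk at 0.39 and Tagln at -0.26 among those of at least 1 CPM, and -0.055 over 10 genes of perivascular fibroblasts, with Apod at 0.37 and Lum at -0.78. Single libraries weighed on these values, with Tagln at 0.069 without APP.4, 0.056 without WT.1 and -0.67 without APP.3, Mylk at 0.19 without WT.2 and 0.63 without WT.1, and Lum at -0.36 without WT.1. The median over the 3 red blood cell features was -0.29.

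Several glial genes rose between the same groups, where 0.878% of all features passed both cut-offs higher in APP. Of 16 microglia and macrophage genes, 8 passed both cut-offs, all higher in APP (among them Cx3cr1, Csf1r, Aif1, Siglech, Selplg, Lyz2 and Ptprc), with a list median of 0.69 and a summed level of 430 and 496 CPM in APP against 269 in both WT libraries. The log2 fold changes of those named ran from 0.69 for Siglech to 2.11 for Lyz2, which codes for lysozyme. The calls of Siglech and Selplg were lost without WT.2, that of Csf1r without APP.4, where its log2 fold change of 0.53 was short of 1.5-fold, and that of Aif1 without WT.1. Aif1 also missed the FDR with DESeq2 size factors (0.0503), with at least 10 counts in every library (0.0566) and with sums by GENCODE gene (0.0557). Of 10 astrocyte genes, Gfap, the filament of reactive astrocytes, and Aqp4, the water channel of the endfeet that wrap the vessels, passed. Gfap had 328 and 372 CPM in APP and 46.9 and 52.3 CPM in WT (log2 fold change 2.82), and Aqp4 had 190 and 214 CPM in APP and 121 and 124 CPM in WT (0.72). Of 10 oligodendrocyte genes, 10 had an unadjusted p under 0.05 by the quasi-likelihood test (11.9% of all features). In all 10 both APP libraries lay above both WT libraries (21.4% of all features). On FDR alone 3 passed (1.24% of all features), Mag passed both cut-offs (0.71), and the list median was 0.51. The 10 neuron genes had a median of -0.079 and 0 passed (1 with an unadjusted p under 0.05, which passed on FDR by DESeq2). The part of these glial differences in the endothelial values was not tested.

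**Figure D5:**
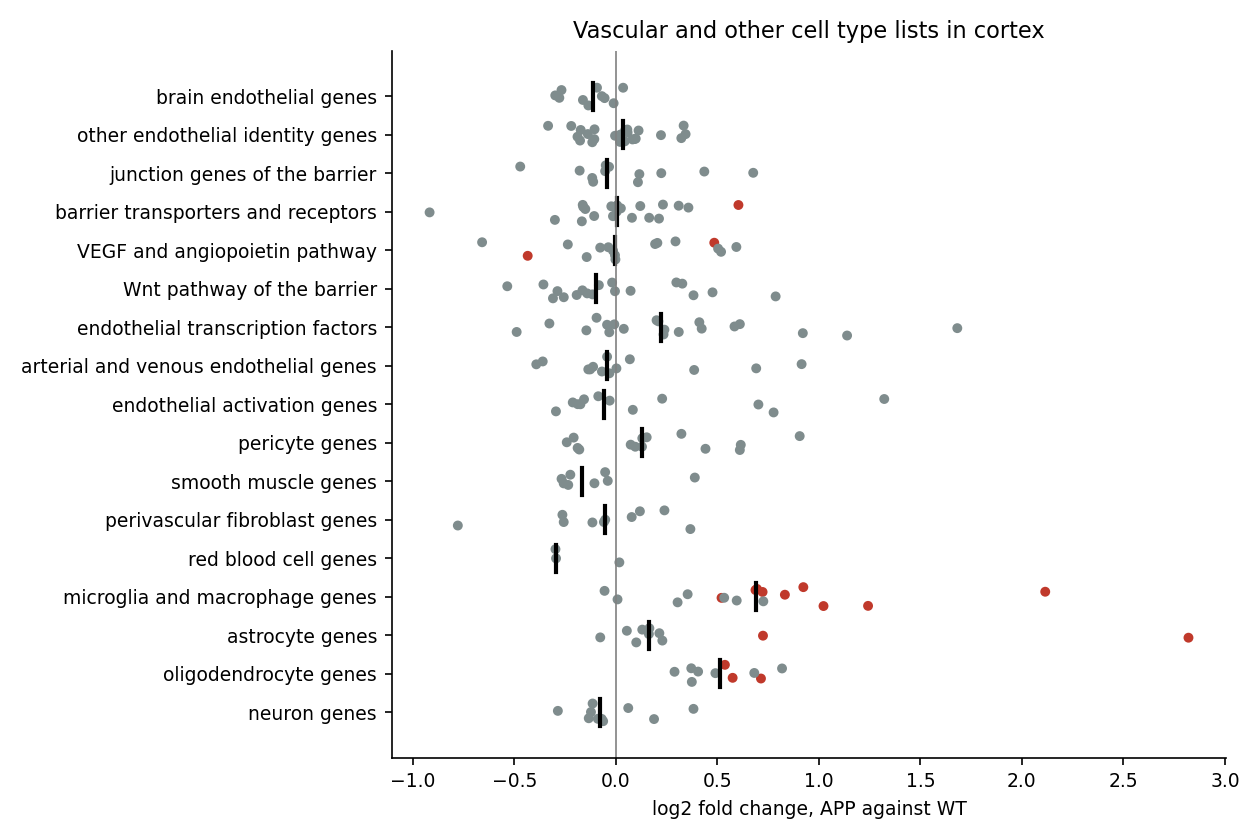
Log2 fold change of APP against WT for each measured gene of the endothelial members and of 16 other lists, with red points for an FDR under 0.05 and a black bar at each list's median. The medians of the endothelial lists lie between -0.11 and 0.22, and those of the microglia and oligodendrocyte lists at 0.69 and 0.51.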

How the data were processed

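The authors removed ribosomal RNA pairs, aligned 100-base read pairs with FANSe2 to Ensembl mouse RNA with up to 7 mismatches, and deposited raw counts per transcript. The submitters' notes name CASAVA 1.8, edgeR and a human build, with no role given. WT columns were matched to their mice, and APP columns only to their group. The authors' 4 comparison columns (fold change, mean level, p-value and FDR) and 4 columns of log2 values per library were not used.

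Counts were summed per deposited symbol, ignoring case. The 8274 rows without a symbol (26.8% of counts) were summed per GENCODE M21 gene as features of their own. R 4.3.3 with edgeR 4.0.16 (quasi-likelihood test, TMM, no covariate, Benjamini-Hochberg adjustment over 19589 features), limma 3.58.1 and DESeq2 1.42.0 was used, with Python 3.11.15, blastn 2.17.0 and MAFFT 7.526. CPM use TMM library sizes. For levels per length, each transcript's CPM was divided by its GENCODE length and summed over a gene's transcripts. The fit was tested on simulated data.

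The members and lists were chosen with earlier results of these data known. Named genes are all members, their near copies, App, the genes past both cut-offs in each list, and for vascular lists those with an FDR under 0.05 and the highest and lowest among genes of at least 1 CPM, except 1 gene that is not reported here. Alternatives were other tests, scalings, filters and sums, and leaving out each library. Sums by GENCODE gene and over near copies were chosen after seeing the data. Intervals and counts cover 2 mice per group, and reads carry no molecular identifiers.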

Additional observations from a re-analysis of the deposited data

How the results depend on the processing

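The number of endothelial genes past the cut-offs was 0 under every alternative run, and on FDR alone it was 1 (Mfsd2a) without APP.3. The median of the 10 log2 fold changes ran from -0.194 without APP.3 to -0.035 without WT.1. Counting only the most counted transcript gave Flt1 0.159, opposite in sign to its main value. The sum of Abcb1a and Abcb1b gave 0.126, opposite in sign to Abcb1a alone. Leaving out 1 library at a time changed the sign of 6 members, with ranges of -0.231 to 0.082 for Cldn5, -0.227 to 0.035 for Pecam1, -0.253 to 0.199 for Flt1, -0.108 to 0.209 for Kdr, -0.50 to 0.107 for Tek and -0.147 to 0.041 for Abcb1a. It left that of Cdh5, Slc2a1, Mfsd2a and Ly6c1 below 0. In these fits a group of 1 library is assumed to vary like the other group. No paired analysis was run, because the labels name no pairing between APP and WT mice. The APP columns carry the numbers 3 and 4, which match no sample number in the labels. With 48 to 1077 counts per member and 2 mice per group, the intervals of Tek, Cdh5 and Mfsd2a include a fall of more than 1.5-fold.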
